A study of Mus musculus with 6 samples.

Results

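The genes described here mark the 2-cell-like state, a rare and passing condition of mouse embryonic stem cells in which genes of the 2-cell embryo are switched on. They were chosen by name: Zscan4c, Zscan4d, Zscan4e, Zscan4f, Tcstv1, Tcstv3, Zfp352, Tmem92, Gm13119 and AF067063, with every array probe that carries such a gene name. Of the 10 names, 8 had a probe, of 34650 gene names on the array, which gave 13 of its 55681 probes. No probe carried the name Zscan4d or Zscan4e.

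Single-colour Agilent arrays, 6 in all, measured RNA from 3 dishes of wild-type cells (WT, the embryonic stem cell line BJ FF2) and 3 dishes of a derivative of that line with knockouts of Tet1, Tet2 and Tet3 (TKO). Tet enzymes oxidise 5-methylcytosine, a step in the removal of DNA methylation. WT and TKO cells were cultured in parallel, first in 2i medium with mouse feeder cells and then moved to matrigel without feeders before collection, and each array holds RNA of a single dish. The replicates are dishes of 1 WT line and of its TKO derivative, so p-values measure the spread between dishes and no spread between independently derived lines.

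The cleavage-stage embryo starts its own transcription with a short burst of genes that are silent in most other cells. Zscan4 proteins, which join a SCAN domain to zinc fingers, belong to this burst and are known in embryonic stem cells for telomere lengthening and genome stability. The transcription factor Dux can switch on much of the programme, while chromatin repressors such as Trim28, Kdm1a and a non-canonical Polycomb complex with Pcgf6, Mga and Max hold it back. Because the state is taken up by few cells of a culture at a time, a bulk measurement cannot tell more cells in the state from more RNA per such cell.

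As a check of the labels, the Tet2 probe with the highest mean read 4.07, 4.05 and 4.12 in WT, against 1.03, 1.18 and 1.14 in TKO, and the Tet1 probe read 4.03, 4.09 and 4.01 against 2.61, 2.70 and 2.64. The Tet3 probe differed by -0.26 ± 0.096 (SE; limma, adjusted p = 0.0606) and missed the threshold. A level here is the log2 signal less that of its array at the 75th percentile. A difference is the TKO mean less the WT mean, over 3 dishes each (n = 3). Which part of each Tet gene was altered is not given in the sources used here. All 10 markers of embryonic stem cells were well above background on all 6 arrays. The arrays lay on 1 slide in 1 scan, with between 51.9% and 58.5% of spots well above background. The 3 WT arrays and TKO dish 1 lay in the first row of the slide and TKO dishes 2 and 3 in the second, where the signals of negative controls spread more (SD of 13.1 and 7.06 intensity units, against 0.834 to 3.92).

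Most of the genes that could be tested were higher in TKO dishes, by amounts that ran from slight to several-fold. Among the tested probes, those of the PRAME-like gene Gm13119 and the transmembrane protein gene Tmem92 rose most, and the Zscan4 probes rose by under 1 on the log2 scale. The tested Zfp352 probe and the AF067063 probe went the other way and fell slightly. Of the 13 probes, 11 passed the filter of being well above background on at least 3 arrays and were tested, and 9 of these were called higher and 2 lower at an adjusted p under 0.05. Over all 30735 tested probes 27.4% were called higher and 30.2% lower. The median difference was 0.53 over the tested member probes and -0.03 over all tested probes. Several member probes share a gene, so these are not counts of genes. With the brightest tested probe of each gene, 5 of 7 members were higher (Tcstv3 among them) and 2 lower, with a median of 0.46. Over all genes so counted, 27.9% were higher and 31.2% lower, with a median of -0.03. Each of the 11 tested probes had TKO and WT levels that did not overlap, as did 66.2% of all tested probes. Of the 11, 8 were well above background on all 6 arrays. The other 3 (Tcstv3 and a pair of Gm13119 probes) passed with all 3 TKO arrays and 0 to 2 WT arrays, so their direction was partly set by the filter. All 3 count in the median of 0.53. A fit of only those probes well above background on all arrays left them out. It called 6 of the 8 members higher and 2 lower. Over all 26094 probes of that fit, 7958 were called higher and 8393 lower.

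**Figure D1:**
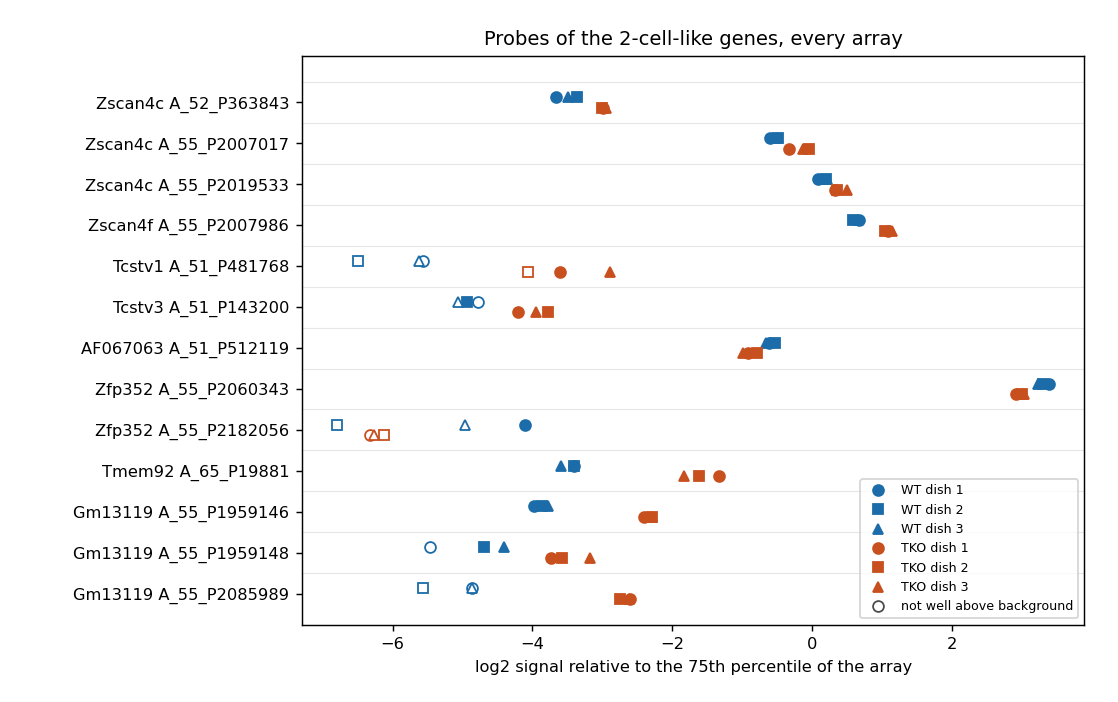
Level of each probe of the 2-cell-like genes on each array (x axis, log2 signal relative to the 75th percentile of the array), with WT dishes in blue, TKO dishes in red and open symbols where the spot was not well above background. TKO points lie to the right of WT points for Zscan4c, Zscan4f, Tcstv1, Tcstv3, Tmem92 and Gm13119, and to the left for AF067063 and the brighter Zfp352 probe.

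The Zscan4 genes are a tandem family on chromosome 7 whose transcripts are nearly alike, and the array probes reflect this. The probe named Zscan4f (A_55_P2007986, mm9 chr7:11987608-11987667, plus strand) is listed in the files against transcripts of Zscan4f, Zscan4d, Zscan4c and Zscan4a. The Zscan4c probe A_52_P363843 is listed against Zscan4c, Zscan4d and Zscan4a, and A_55_P2019533 against Zscan4c and Zscan4a. A_55_P2007017 lists 2 transcripts, of which 1 could be named through RefSeq, as Zscan4c. The files list at most 4 transcripts for a probe, so further copies may be read. Zscan4d is therefore read, if at all, through probes that bear other names, and Zscan4e, which RefSeq holds as a pseudogene, was not among the transcripts that could be named for these probes. How close the copies are shows in a Zscan4c probe and its Zscan4a counterpart, which share a run of 58 bases with 2 differences, G54A and C55T, counted from the 5′ end of the Zscan4c probe. A 30-base stretch of each follows, with the differing bases in capitals.
Zscan4c A_55_P2019533, bases 26 to 55: aaatgcattgcctcttcagacatctcatGC
Zscan4a A_55_P2007016, bases 28 to 57: aaatgcattgcctcttcagacatctcatAT

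The probe named Zscan4f had levels of 0.67, 0.59 and 0.66 in WT against 1.09, 1.05 and 1.15 in TKO. The lowest TKO dish lay above the highest WT dish. The difference of 0.46 ± 0.046 (SE) is a 1.37-fold rise (limma, adjusted p = 0.000484). In the first slide row alone, which holds 1 TKO array, the difference was 0.45.

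The 3 probes named Zscan4c moved the same way by different amounts. A_52_P363843 (mm9 chr7:11594425-11594484, plus strand) read -3.66, -3.36 and -3.49 in WT, against -2.99, -3.0 and -2.94 in TKO, a rise of 0.53 ± 0.082 (SE; adjusted p = 0.00271). A_55_P2007017 (mm9 chr7:11595690-11595748, plus strand), the probe with no other gene named among its transcripts, read -0.60, -0.48 and -0.50 in WT, against -0.33, -0.04 and -0.13 in TKO, a rise of 0.37 ± 0.085 (SE; adjusted p = 0.013). Here TKO dish 1, the dish that shares its slide row with WT, was the lowest of the TKO dishes. In that row alone, where the lone TKO dish is assumed to vary like the WT dishes, the difference was 0.21 with an adjusted p of 0.111, and median centring (0.20, adjusted p = 0.0639) also ended the call. For A_52_P363843, normexp background correction (0.10, adjusted p = 0.0515) and the first row alone (0.52, adjusted p = 0.0514) did so. These adjusted p-values are from limma.

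The third, A_55_P2019533 (mm9 chr7:11595751-11595810, plus strand), read 0.09, 0.20 and 0.22 in WT, against 0.33, 0.36 and 0.50 in TKO. The gap between the groups was small, and the difference of 0.23 ± 0.067 (SE; limma, adjusted p = 0.0313) missed the threshold in 9 of 18 alternative settings, among them the fits without WT dish 1, 2 or 3 and without TKO dish 2 or 3. Its range over the alternatives was 0.06 to 0.26. Its near-copy for Zscan4a, a transcribed pseudogene in RefSeq, read 0.02, -0.04 and 0.06 in WT, against 0.18, 0.27 and 0.32 in TKO, a difference of 0.24 ± 0.055 (SE; adjusted p = 0.0114). That call was lost in 4 of 18 alternatives (no filter, median centring, the first row alone, and a block for the array row), over which the difference ran from 0.08 to 0.28.

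Other probes of the family lie outside the 10 names. The Zscan4b probe A_55_P2003713, listed against Zscan4b, Zscan4d, Zscan4f and Zscan4c, rose by 0.56 ± 0.061 (SE; limma, adjusted p = 0.000657). A further Zscan4a probe, A_65_P06115, differed by 0.15 ± 0.099 (SE; adjusted p = 0.243), with overlapping dishes. The probe A_55_P2001523, which bears no gene name, shares 58 bases with the Zscan4f probe at 6 differences (A8T, G10C, G22T, A30G, G49A and T52G, counted along the Zscan4f probe). It was well above background on 0 of 3 WT arrays and on all 3 TKO arrays, with a TKO mean 2.87-fold above an approximate bound for WT. It passed the filter through the TKO arrays alone, so its direction was set by the filter. For such a bound, each WT array was given the larger of its own reading of the probe and its dimmest signal that still cleared background, and the TKO mean was set against the mean of these. The bound is approximate, since brighter spots can fail to clear background. On WT array 1 the dimmest such signal had a level of -5.67, while the Tcstv3 probe failed at -4.78. The stretch with most of its differences shows how the copy departs from Zscan4f.
Zscan4f A_55_P2007986, bases 3 to 32: gttgcAaGtaaattgtactGtcccaatAat
Unnamed A_55_P2001523, bases 1 to 30: gttgcTaCtaaattgtactTtcccaatGat

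The family copies are alike at their promoters too. RefSeq (build GRCm38.p6) gave a promoter window of 300 bases for 5 of the 10 members. Below are 120 upstream bases of 3 Zscan4 genes, aligned on Zscan4f, and the 120 bases before the start of Zfp352 for contrast, with TATAAA and CG in capitals.
Zscan4f, chr7:11397795-11397914, plus strand: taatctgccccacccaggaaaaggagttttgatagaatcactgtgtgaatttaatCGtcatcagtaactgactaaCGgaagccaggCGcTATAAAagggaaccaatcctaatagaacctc
Zscan4c, chr7:11005602-11005721, plus strand: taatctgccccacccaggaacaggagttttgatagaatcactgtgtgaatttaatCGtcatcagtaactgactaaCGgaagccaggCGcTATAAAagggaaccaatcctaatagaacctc
Zscan4d, chr7:11166183-11166302, minus strand: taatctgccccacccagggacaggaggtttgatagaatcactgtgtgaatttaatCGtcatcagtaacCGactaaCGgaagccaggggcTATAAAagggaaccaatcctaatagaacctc
Zfp352, chr4:90218700-90218819, plus strand: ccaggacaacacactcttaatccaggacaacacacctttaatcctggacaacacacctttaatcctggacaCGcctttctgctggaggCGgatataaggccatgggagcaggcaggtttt
Zscan4c differed from Zscan4f at 1 base of this stretch and Zscan4d at 5. The letters TATAAA, searched on both strands of the 300-base windows, were in those of Zscan4c, Zscan4d, Zscan4f and Gm13119 (Pramel31 in RefSeq) and not in that of Zfp352, and in 13.6% of 32851 RefSeq promoters. CG, the pair of bases at which DNA methylation is placed, occurred 4 times in the window of Zscan4c, 3 times in those of Zscan4d, Zscan4f and Gm13119, and 2 times in that of Zfp352. The median over all promoters was 7. No methylation was measured in these samples.

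Tcstv1, Tcstv3 and AF067063, which RefSeq places together on a chromosome other than that of Zscan4, are further genes of the 2-cell embryo. In the mm9 positions of the array files the Tcstv3 and AF067063 probes lie on unplaced sequence (chrUn_random:3205-3264 and chrUn_random:125751-125810, both minus strand), and the Tcstv1 probe is unmapped. The Tcstv3 probe (A_51_P143200) read -4.78, -4.93 and -5.07 in WT, against -4.20, -3.78 and -3.95 in TKO. It was well above background on 1 WT array, that of dish 2, and on all 3 TKO arrays. The probe passed the filter through the TKO arrays, and with 2 WT arrays not well above background its difference of 0.95 ± 0.130 (SE; limma, adjusted p = 0.00168) is no exact size of change. The difference was 0.15 (adjusted p = 0.0382) under normexp, whose offset of 50 intensity units flattens dim probes. This probe is listed against Tcstv3 alone.

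Tcstv1 was near the limit of detection. Its probe (A_51_P481768) read -5.57, -6.50 and -5.63 in WT, against -3.60, -4.06 and -2.89 in TKO. It was well above background on 0 of 3 WT arrays and on 2 of 3 TKO arrays (dishes 1 and 3), so it failed the filter and was not tested. The TKO mean was 3.09-fold above the approximate WT bound. That mean includes dish 2, which was not well above background, so the fold is no lower limit of the rise. In the fit with no filter, limma gave the probe an adjusted p of 0.0102, which rests in part on readings not well above background.

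AF067063 was well above background on every array (A_51_P512119). It read -0.62, -0.53 and -0.66 in WT, against -0.92, -0.79 and -0.98 in TKO. All TKO dishes were below all WT dishes, by a margin of similar size to the spread within a group. The fall of 0.30 ± 0.066 (SE; limma, adjusted p = 0.0117) is 1.23-fold, and the array row as a block (-0.32, adjusted p = 0.0622) ended the call.

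A paralog on the array shows how unlike probes of this gene group can be. AF067061 shares its probe A_55_P2182902 with Tcstv3 and Gm20767 in the listed transcripts, and that probe rose from -3.40, -3.50 and -3.51 in WT to -2.53, -2.72 and -2.76 in TKO. This rise of 0.80 ± 0.074 (SE; limma, adjusted p = 0.000351) has the sign of the Tcstv3 probe. It also has that of the brighter Gm20767 probe A_55_P1982638, named after its value was seen. That probe rose from -0.17, -0.34 and -0.33 in WT to 0.56, 0.68 and 0.61 in TKO (0.90 ± 0.064 SE; adjusted p = 0.000131). Which transcript the shared probe read was not tested. The other AF067061 probe, A_55_P2056719, fell from 0.91, 0.76 and 0.85 to 0.17, 0.20 and 0.10 (-0.68 ± 0.057 SE, adjusted p = 0.000233), with the sign of AF067063. The pair of probes under this name thus moved in opposite directions.

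**Figure D2:**
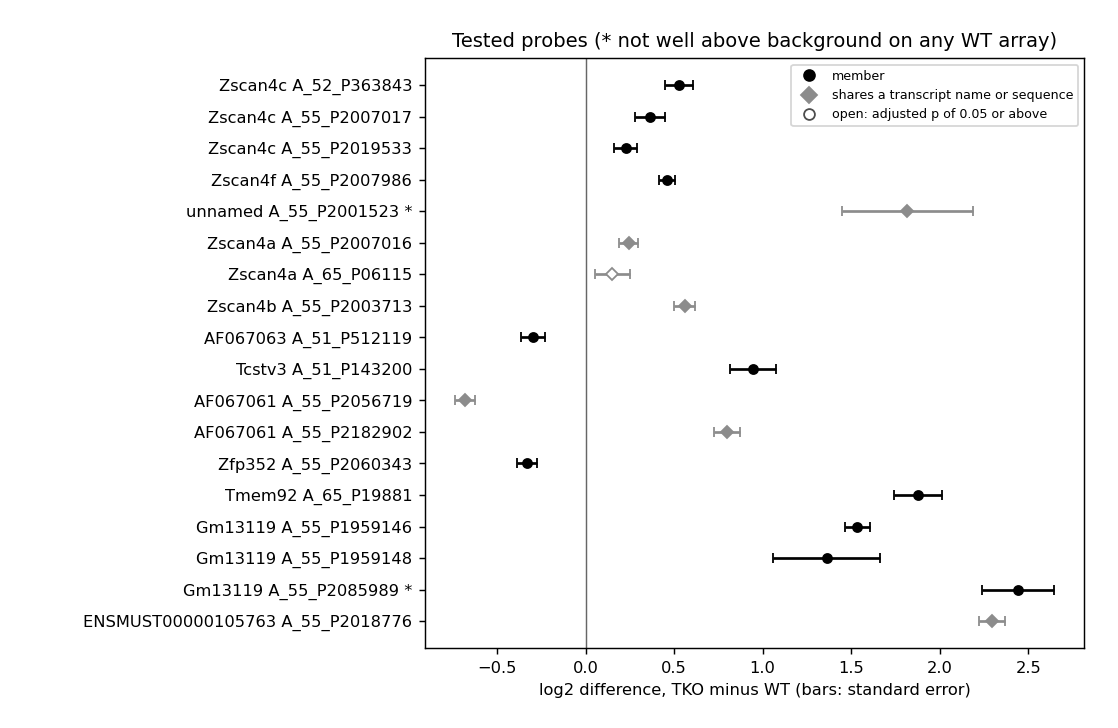
Log2 difference (TKO minus WT, x axis; bars are standard errors, n = 3 dishes a group) of each tested member probe (black) and of probes that share a transcript, a gene name or sequence with a member family (grey diamonds); a star marks probes that no WT array measured, where the value is not a size of change. The 4 Zscan4c and Zscan4f probes lie between 0.23 and 0.53, and the 2 AF067061 probes lie on opposite sides of 0.

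Zfp352 encodes a zinc finger protein of the early embryo. Its probe A_55_P2060343 (mm9 chr4:89892270-89892329, plus strand) read 3.39, 3.31 and 3.24 in WT, against 2.92, 3.00 and 3.03 in TKO. All TKO dishes were lower, with a fall of 0.33 ± 0.057 (SE; limma, adjusted p = 0.00404), 1.26-fold. A second probe named Zfp352, A_55_P2182056 (mm9 chr4:89891912-89891971, plus strand), was well above background on WT array 1 only. It read -4.11, -6.79 and -4.97 in WT, against -6.33, -6.12 and -6.26 in TKO, was not tested, and its dishes overlapped. The probes of this name thus gave far different levels, with WT means of 3.31 and -5.29, and the fall rests on the brighter probe alone. Both are listed against Zfp352 alone, and no other probe on the array came within 10 edits of either. Transcripts without a probe on the array were not searched, so whether the brighter probe also reads other RNA was not tested. The tested probes within 5 Mb of the brighter probe had a median difference of -0.15 (76 probes).

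Tmem92 encodes a transmembrane protein and is a customary marker of the 2-cell-like state. Its probe (A_65_P19881, mm9 chr11:94638552-94638611, minus strand) was well above background on all 6 arrays and is listed against Tmem92 alone. It read -3.41, -3.40 and -3.59 in WT, against -1.33, -1.61 and -1.83 in TKO. The dishes were far apart, and the rise of 1.88 ± 0.137 (SE; limma, adjusted p = 0.000143) is 3.67-fold. Under normexp it was 0.81 (adjusted p = 5.4e-05). Tmem92 lies on chromosome 11, where 55.6% of 2339 tested probes were called higher and 13.9% lower, and the 293 tested probes within 5 Mb had a median difference of 0.46, with quartiles of 0.03 and 0.98. The part of this shift in the value of Tmem92 was not tested. The surroundings of the Zscan4f probe (103 probes, median -0.02) and of Gm13119 (278 probes, median -0.01) showed no such shift.

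**Figure D3:**
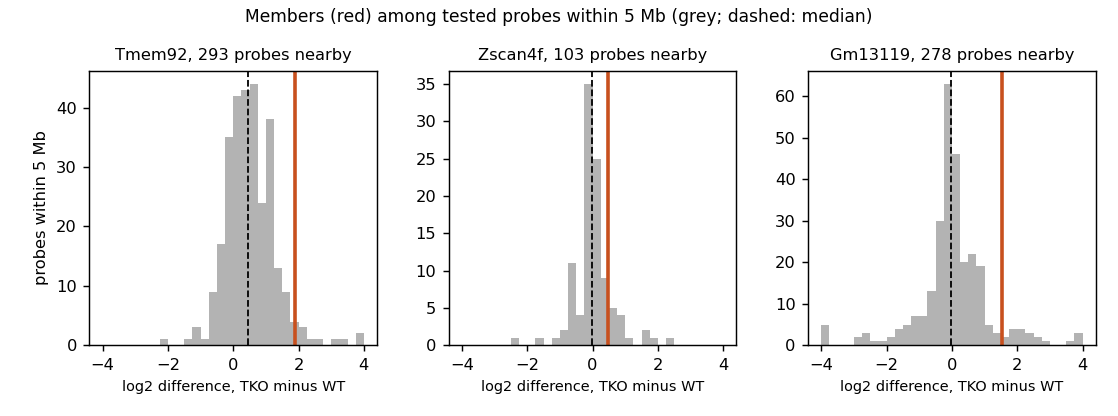
Log2 differences (TKO minus WT, x axis) of tested probes within 5 Mb of Tmem92, Zscan4f and Gm13119 (grey bars, y axis number of probes, values beyond 4 set to 4; dashed line, median), with the member itself as a red line. Around Tmem92 the distribution has a median of 0.46 and quartiles of 0.03 and 0.98, while its median is near 0 around the other members shown.

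Gm13119 is a PRAME-like gene, of a family that has many copies on chromosome 4 and is expressed in early embryos and germ cells. Its probe A_55_P1959146 (mm9 chr4:143953871-143953930, plus strand) read -3.98, -3.86 and -3.77 in WT, against -2.41, -2.29 and -2.29 in TKO. The rise of 1.54 ± 0.071 (SE; limma, adjusted p = 2.97e-05) is 2.90-fold, and was 0.58 under normexp (adjusted p = 1.37e-05). Both groups were tight and far apart.

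The other Gm13119 probes rose as well. A_55_P1959148 (mm9 chr4:143953751-143953810, plus strand), which lists 2 transcripts, 1 of them named and that as Gm13119, read -5.46, -4.69 and -4.41 in WT, against -3.73, -3.57 and -3.17 in TKO, with WT array 1 not well above background. Its difference was 1.36 ± 0.304 (SE; limma, adjusted p = 0.0114), was 0.26 (adjusted p = 0.00456) under normexp, and did not pass with the array row as a block (1.12, adjusted p = 0.11) or in the first row alone (adjusted p = 0.134). A_55_P2085989 (mm9 chr4:143953681-143953740, plus strand) was well above background on 0 of 3 WT arrays and on all 3 TKO arrays, where it read -2.60, -2.74 and -2.62. Its TKO mean was 4.77-fold above the approximate WT bound, and it passed the filter through the TKO arrays alone. That probe is also listed against Gm13043, Pramel20 and Gm13057, and A_55_P1959146 against Pramel16. A transcript probe that is almost a copy of the latter, A_55_P2018776, shares 58 bases with 4 differences (C13G, T54C, T55A and C56A) and rose by 2.30 ± 0.073 (SE; adjusted p = 9.66e-06). The stretch that holds 3 of these differences is shown.
Gm13119 A_55_P1959146, bases 27 to 56: gactaatggaatcatacagttgtgcatTTC
Transcript probe A_55_P2018776, bases 29 to 58: gactaatggaatcatacagttgtgcatCAA

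The wider set of genes reported for this state or for the early embryo did not move as a block. Of 62 further names, 46 were on the array and 28 were tested, with 1 probe a gene, the one of highest mean level among those that passed the filter. Of these, 11 rose, 5 fell and 12 missed the threshold, against 27.9% higher and 31.2% lower over all 21563 genes so tested, with a median of 0.05. Among the rises, Gm12794 was well above background on 1 WT array and all 3 TKO arrays, so it passed the filter through TKO. In the fit of probes well above background on all arrays, 10 of 25 rose and 5 fell. Over all 26094 probes of that fit, 7958 were called higher and 8393 lower. The largest rise was in Cphx1, a homeobox gene of the early embryo, which read -3.42, -3.79 and -3.65 in WT, against 0.37, 0.35 and 0.36 in TKO (3.98 ± 0.098 SE; limma, adjusted p = 5.01e-06). Next came members of the PRAME-like family, Pramel6 (2.50 ± 0.070), Gm13043 (2.42 ± 0.096) and Pramel7 (2.34 ± 0.071; all SE). Under normexp Cphx1 rose by 2.51 and Pramel7 by 1.52. Zscan4a, Zscan4b and Gm13043 are also among the rises. Member probes list Zscan4a and Gm13043, and the Zscan4b probe lists member genes, so these readings may not be separate from those of the members. The largest fall was in B020031M17Rik, from 1.57, 1.21 and 0.84 to -0.73, -0.78 and -1.0 (-2.04 ± 0.196 SE, adjusted p = 0.000406). The PRAME-family gene Pramef12 fell by 1.35 ± 0.043, Gm2022 by 0.74 ± 0.063 and Fbxo15, a gene of pluripotent cells, by 0.35 ± 0.050 (all SE).

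Genes that activate the state went both ways. Dux itself was dim, at -4.35, -4.12 and -4.01 in WT and -4.05, -4.67 and -3.97 in TKO, with the array of TKO dish 2 not well above background, and its difference of -0.07 ± 0.209 (SE) missed the threshold (limma, adjusted p = 0.798). Dppa3, a maternal factor that protects methylation marks in the zygote, rose from -2.90, -3.09 and -2.84 to 2.80, 2.79 and 2.66, by 5.70 ± 0.082 (SE; adjusted p = 1.88e-06). Dppa2 rose by 0.46 ± 0.088 (SE; adjusted p = 0.0062), while its partner Dppa4 differed by 0.07 ± 0.054 (adjusted p = 0.307). Nelfa was called higher by a slight 0.16 ± 0.045 (SE; adjusted p = 0.0287), a call lost in 9 of 18 alternatives, among them the fits without WT dish 2 or 3 or TKO dish 2 or 3. With median centring its value was -0.013 (adjusted p = 0.877). The remaining activators fell: Gata2 by 1.09 ± 0.090, Tbx3 by 1.08 ± 0.057 and the chromatin remodeller gene Smarca5 by 0.26 ± 0.036 (all SE). That made 3 of 8 higher, 3 lower and 2 not past the threshold, with a median of 0.00, beside 27.9% higher and 31.2% lower over all genes.

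Of the 32 genes that restrain the state, all tested, 16 rose and 5 fell, and the remaining 11 missed the threshold, beside 27.9% higher and 31.2% lower over all genes. The median was 0.16. The chromatin remodeller gene Atrx rose by 0.91 ± 0.072, Mga by 0.83 ± 0.052, and the deacetylase genes Hdac1 and Hdac2 by 0.72 ± 0.053 and 0.71 ± 0.045 (all SE). Zfp42, known as Rex1 and a marker of naive pluripotency, fell from 7.67, 7.71 and 7.70 to 3.52, 3.65 and 3.63 (-4.09 ± 0.049 SE; limma, adjusted p = 1.39e-06). The nucleolin gene Ncl fell by 0.53 ± 0.081, the demethylase gene Kdm1a by 0.27 ± 0.037 and Max by 0.24 ± 0.059 (all SE). The fifth fall, named after its value was seen, was that of the corepressor gene Trim28 (-0.18 ± 0.045 SE; adjusted p = 0.0183). The Max call was lost in 5 of 18 alternatives, among them the fit without TKO dish 3, and the Trim28 call in 7, among them the fits without WT dish 1 or 3 or TKO dish 2. Most of these shifts were small, and the split of this list depended on the scaling: with median centring 5 were higher and 11 lower.

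**Figure D4:**
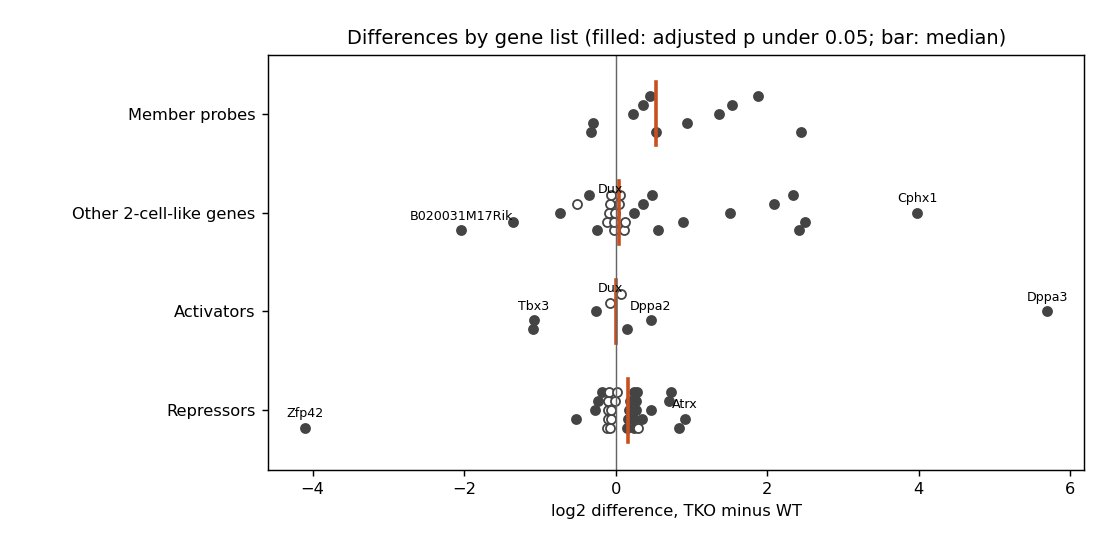
Log2 difference (TKO minus WT, x axis) of each tested member probe and of each tested gene in the lists of other 2-cell-like genes, activators and repressors (points, filled where the adjusted p was under 0.05; red bar, median of the list). The member probes have a median of 0.53, which counts 3 probes that were not well above background on every WT array. The other 2-cell-like genes have a median of 0.05, and Dppa3 at 5.70 and Zfp42 at -4.09 lie farthest from 0.

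Markers of other cell types also differed between the dishes. The summed linear level of 15 fibroblast genes, which feeder cells would bring, was 27.5 to 28.2 times the 75th percentile signal in WT and 33.9 to 37.8 in TKO, with 12 of the 15 well above background on all arrays and Lum on none. The sum of 9 trophoblast genes was 33.7 to 34.1 in WT and 64.5 to 66.1 in TKO, that of 10 primitive endoderm genes 38.7 to 41.5 and 11.7 to 13.2, and that of the 10 stem cell markers 1140 to 1215 and 833 to 905. Such sums are led by the brightest genes, and single markers went both ways. Of the primitive endoderm genes 3 were called higher and 5 lower (10 tested), and of the stem cell markers, which include Zfp42, 1 and 7 (10 tested). Of the fibroblast genes 9 were higher and 1 lower (13 tested), and of the trophoblast genes 7 and 1 (8 tested). Only 6 of the 9 trophoblast genes and 9 of the 10 primitive endoderm genes were well above background on all arrays. Over all genes 27.9% were higher and 31.2% lower. The part of these markers in the values of the 2-cell-like genes was not tested.

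The probes whose 6 array values lay closest to those of the Zscan4f probe, after centring each on its own mean, were those of Arl4a, Ctage5 and Smoc1, with root mean square differences of 0.013, 0.013 and 0.014 over 6 arrays. Each rose by an amount like that of Zscan4f: 0.44, 0.47 and 0.47. With 6 arrays in 2 groups the likeness rests mainly on the group difference.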

How the data were processed

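Per the submitters' processing notes, the scanner files were made with Agilent Feature Extraction 11.5.1.1. The deposited processed, mean and background signals are linear intensity values; their headers record background subtraction and spatial detrending on each array, with no scaling across arrays. The deposited flags are 0 or 1. The authors' deposited table held log2 values that differed from log2 of the processed signal by 1 constant per array within 0.01 (column medians -4.03 to -3.74); its scale and centring are not given in the sources used here.

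Control and outlier spots were left out, spots of a probe averaged, and each array's 75th percentile (320.9 to 366.3 intensity units) subtracted on the log2 scale. Probes well above background on at least 3 of 6 arrays (30735) were tested with limma 3.58.1 (lmFit, eBayes; two-sided) in R 4.3.3, with Benjamini-Hochberg adjustment over all of them and a threshold of 0.05. No saturated spots occurred. The script was tested on simulated data. Positions are mm9. Groups came from sample titles. Named genes were all member probes, probes sharing their transcripts or within 10 edits, and up to 4 rises and 4 falls of each list, and all activators. The further probes named Zscan4a and AF067061 were taken by gene name. Members and lists were chosen with earlier results of these data known. The number of arrays limits the precision.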

Additional observations from a re-analysis of the deposited data

How the results depend on the processing

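In 191 refits of single member probes over 18 alternative settings, 174 kept the call, 17 lost it and 0 changed sign. Of the 11 probes, 6 kept it in every alternative run for them. Those 6 include the Tcstv3 probe and the Gm13119 probe A_55_P2085989, which passed the filter through the TKO arrays. Neither was run where every array had to be well above background, a setting with 6 of 8 members higher and 2 lower. The count of members called higher (9) was 5 with 1 probe per gene name, where 7 were tested and 2 called lower. Over all 21563 genes of that fit 6096 were called higher and 6878 lower. The count of members was also smaller in the first array row alone, where the lone TKO dish is assumed to vary like the others. With the array row as a block, 6 members were called higher, and the count called lower (2) was 1. Over all probes of that fit 6918 were called higher and 7159 lower. Median centring, which moves the median of all tested probes by -0.17, gave 5404 higher and 12545 lower over all probes, against 8433 and 9277, 7 members higher and 2 lower, and 5 repressors higher and 11 lower. Under that shift of all probes Nelfa was -0.013, Ehmt2 -0.0048 and Ehmt1 -0.013 (limma, adjusted p = 0.877, 0.963 and 0.9), so these calls were lost and none became a call of lower. With no filter the median of all probes was 0.17. Repressors called lower were 3 of 32 with no filter, where 7660 of all 55681 probes were called lower. They were also 3 with replicate number as a block. In the first array row alone, with its lone TKO dish, fewer repressors were called in either direction. Replicate numbers did not pair the dishes: correlations of deviations were -0.060, -0.0082 and 0.0024, and 0 of 3 TKO dishes correlated best with the WT dish of the same number. With the replicate number as a block, 9 members were higher and 2 lower, and 7617 and 8200 of all probes. Apart from the normexp offset, whose effect follows from its construction, the cause of these changes was not tested. The remaining limit is signal: 5 of 13 member probes were not well above background on at least 1 array.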
